A study of Homo sapiens with 6 samples.

Results

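Polycomb repressive complex 2 (PRC2) was followed at the transcript level through 10 genes for its subunits, EZH1, EZH2, EED, SUZ12, RBBP4, RBBP7, JARID2, MTF2, PHF19 and AEBP2, picked by symbol from the 58735 genes of the deposited count table. All 10 were found, and all 10 had enough counts to be tested. The cells were HCT-8, an established human colorectal adenocarcinoma line grown as a monolayer in serum-supplemented RPMI-1640 medium. The control group was 3 untreated samples, and the 5-FU group was 3 samples of the same line given 5-fluorouracil, a pyrimidine analogue that inhibits thymidylate synthase and enters RNA and DNA. Treatment was at the 10% inhibitory concentration, and the sources used here give neither a molar dose nor an exposure time. Whether the 3 samples per group came from independent cultures is not stated. The p-values therefore reflect the spread among these samples alone, which may be technical.

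PRC2 is the enzyme complex that methylates lysine 27 of histone H3, the mark of Polycomb-silenced chromatin. EZH1 or EZH2 carries the catalytic SET domain, EED binds the methylated histone tail and stimulates the enzyme, SUZ12 is the scaffold, and RBBP4 or RBBP7 binds histones. Accessory proteins sort the core into alternative forms, one with a Polycomb-like protein (PHF1, MTF2 or PHF19) and one with JARID2 and AEBP2. EZH2 is known as the form of dividing cells and EZH1 as the form that persists in resting ones, and EZH2 is often abundant in colorectal cancer.

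Gene counts summed to between 18459939 and 23495607 per library. Mitochondrial transcripts took 4.66% to 4.88% of counts in the control libraries and 25.5% to 28.5% in the 5-FU libraries. Of 11 colon epithelial markers 9 had a mean count over 10. All 11 summed to 4258 to 5700 CPM (counts scaled to library size with TMM factors) in control and 3188 to 3858 CPM in 5-FU libraries. Of the 10 tested, 4 were called lower and 2 higher. The 6 fibroblast markers were low but higher after 5-FU, summing to 15.8 to 20.2 CPM in control and 34.3 to 64.6 CPM in 5-FU libraries, with 1 of 2 tested genes called higher and DCN and LUM at 0 in every library. The 4 endothelial markers summed to 2.17 to 3.12 CPM in control and 3.55 to 5.55 CPM in 5-FU libraries, also with 1 of 2 tested genes higher. The 5 leukocyte markers overlapped between groups, at 6.51 to 7.16 and 5.48 to 7.15 CPM. The part of these markers in the PRC2 differences was not tested. Bulk RNA cannot tell fewer cells of a kind from less RNA per cell.

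After 5-FU, 8 of the 10 PRC2 genes fell, EZH1 rose, and JARID2 did not pass the test. These calls come from edgeR's quasi-likelihood test with an adjusted p under 0.05. Over all 19771 tested genes 33.9% were lower and 36.3% higher by the same rule, 70.2% in all, so that a change by itself was the common case. The median log2 fold change of the PRC2 genes was -1.07, against 0.09 over all tested genes. The ranges of control and 5-FU libraries were separate for 9 of the 10 members, where 74.3% of all tested genes had separate ranges. The members' mean counts ran from 610.3 for EED to 3570 for RBBP4, well above the low-count filter.

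**Figure D1:**
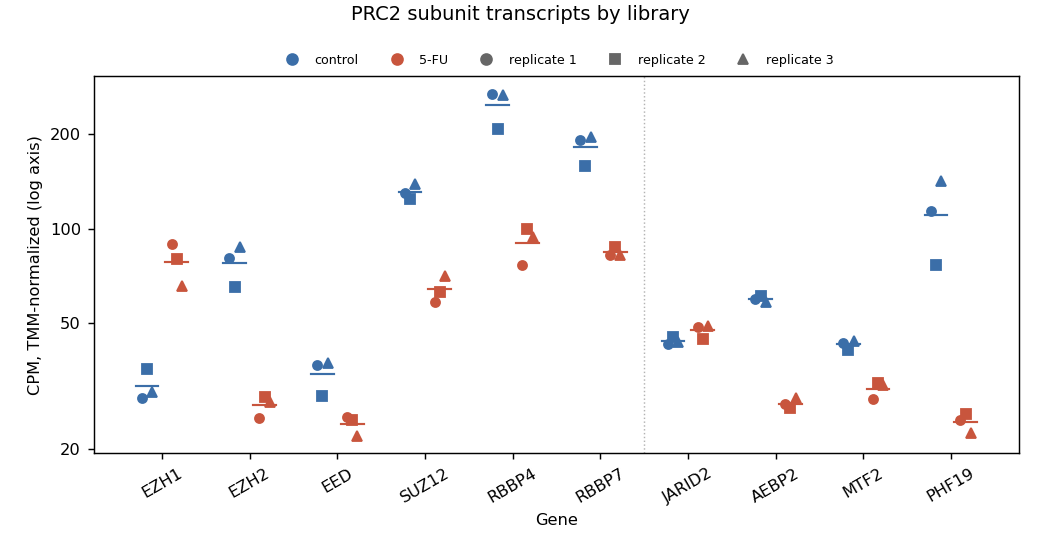
TMM-normalized CPM (log axis) of the 10 PRC2 genes in each library, control in blue and 5-FU in red, with the marker shape giving the replicate number and a line the group mean; core subunits stand left of the dotted line and accessory subunits right of it. EZH1 is the member whose 5-FU libraries (65.8 to 89.3 CPM) lie above its controls (28.98 to 35.8 CPM), and the groups of JARID2 overlap.

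The paralogous catalytic subunits moved in opposite directions. EZH2 stood at 80.8, 65.1 and 87.6 CPM in control replicates 1, 2 and 3 and at 25.1, 29.2 and 28.1 CPM in 5-FU replicates 1, 2 and 3. Every 5-FU library lay below every control library, and the group means were 77.9 ± 11.5 and 27.5 ± 2.13 CPM (SD, n = 3 per group). This is a log2 fold change of -1.50 (SE 0.14, edgeR adjusted p = 4.25e-06), which leaves 35.3% of the control level. Only 7.15% of tested genes had a lower log2 fold change.

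EZH1 went the other way, from 28.98, 35.8 and 30.2 CPM in the control libraries to 89.3, 79.96 and 65.8 CPM in the 5-FU libraries. All 3 treated libraries were above all 3 controls. EZH1 rose 2.47-fold (log2 fold change 1.31, SE 0.14, edgeR adjusted p = 1.26e-05), from a mean of 31.7 ± 3.66 to 78.4 ± 11.9 CPM (SD, n = 3 per group). Of all tested genes 80.8% had a lower log2 fold change, so the rise was moderate for this data set. EZH1 (ENSG00000108799) lies on the minus strand of chromosome 17 at 42700275 to 42745049, and EZH2 (ENSG00000106462) on the minus strand of chromosome 7 at 148807383 to 148884321, both in GRCh38. No other annotated gene shares exonic bases with either.

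Per length, in the authors' FPKM (a fragment count divided by gene length and by library depth), EZH2 was the more abundant of the pair in every control library and the less abundant in every 5-FU library. The ratio of EZH2 to EZH1 was 4.31, 2.81 and 4.48 in control replicates 1, 2 and 3. In 5-FU replicates 1, 2 and 3 it was 0.434, 0.564 and 0.661. The ratio fell 6.95-fold, a log2 difference of -2.80 between group means of 1.92 ± 0.37 and -0.88 ± 0.31 (SD, n = 3 per group). Library scaling cancels in such a ratio. The exact two-sided permutation p was 0.1, the smallest that 3 against 3 can give, and remained 0.1 after Benjamini-Hochberg adjustment over the 3 ratios computed for paralogous subunits. EZH2 made up 78.9% ± 4.47 of the summed FPKM of EZH1 and EZH2 in control and 35.4% ± 4.81 in 5-FU libraries. The sum itself went from 22.6 ± 2.52 to 16.2 ± 1.11 FPKM, so the pair together was lower after 5-FU on this scale, and the groups did not overlap.

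**Figure D2:**
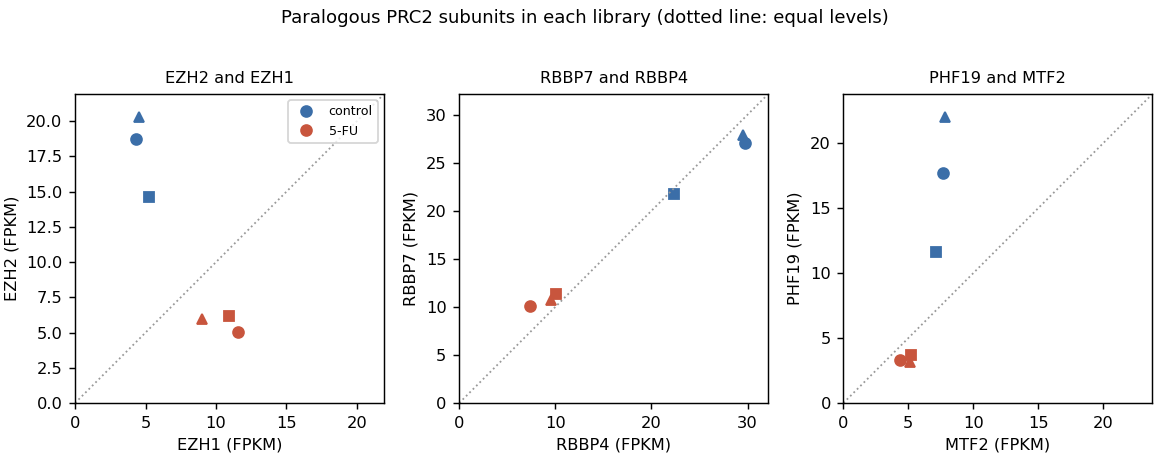
FPKM of the first against the second gene of each of 3 paralogous pairs, 1 point per library, control in blue and 5-FU in red, marker shapes as replicates 1 (circle), 2 (square) and 3 (triangle), with a dotted line where both levels are equal. For EZH2 and EZH1 the groups lie on opposite sides of the line, for RBBP7 and RBBP4 they stay close to it, and PHF19 loses its lead over MTF2.

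The promoters of EZH2 and EZH1 are shown because the pair split in direction. The stretches run from 250 to 31 bases before the RefSeq gene start (GRCh38.p14, minus strand, written 5′ to 3′), chr7:148884322-148884541 for EZH2 and chr17:42745071-42745290 for EZH1. Capitals mark CCAAT on either strand (read as ATTGG on the other), a word known to bind NF-Y, and the 8-letter words of the E2F family described next.
EZH2: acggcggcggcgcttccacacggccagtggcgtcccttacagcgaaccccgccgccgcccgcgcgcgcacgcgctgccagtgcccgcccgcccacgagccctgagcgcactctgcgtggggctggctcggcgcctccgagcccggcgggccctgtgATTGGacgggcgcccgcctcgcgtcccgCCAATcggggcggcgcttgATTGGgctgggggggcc
EZH1: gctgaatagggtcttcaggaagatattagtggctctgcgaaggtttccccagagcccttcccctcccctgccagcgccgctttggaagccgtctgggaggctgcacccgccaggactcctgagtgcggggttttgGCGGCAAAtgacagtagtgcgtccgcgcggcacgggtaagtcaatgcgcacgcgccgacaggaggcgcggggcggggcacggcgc

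RefSeq lists 15 start windows for the 10 members, each from 250 bases before to 50 bases into the gene, and these were searched on both strands. The EZH2 window of the printed stretch holds CCAAT 4 times, 3 of them in the stretch above. A count of at least 4 occurs in 0.991% of all 35116 windows of that length. This cutoff equals the window's own count, and no other member window reached it. The other EZH2 window, with its start at 148883485, holds no CCAAT. The EZH1 window holds none. At least 1 CCAAT stands in 10 of the members' 15 windows, from 7 of the 10 genes, and in 34.6% of all windows. Its share was 28.7% of windows with at least 60% G and C. CCAAT was absent from the windows of MTF2 and AEBP2, which fell, as from that of EZH1, and present in a window of JARID2, which gave no call. E2F sites were searched as TTTCCCGC, TTTGGCGC, TTTCGCGC or TTTGCCGC. One of these words stands in 6 of the members' 15 windows, each from a different gene. The share is 3.31% of all windows and 4.88% of the 16447 windows with at least 60% G and C, a class that holds 14 of the members' 15. The matches are printed with 30 bases of context on the gene's strand, with the match in capitals.
EZH2: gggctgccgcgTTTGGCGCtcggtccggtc
PHF19: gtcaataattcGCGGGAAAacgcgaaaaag
SUZ12: cgacccctaatTTTCCCGCgaattcagttc
MTF2: accggcagtccGCGGGAAAccaaaatggcg
AEBP2: caaggcgacgtTTTGCCGCgatccccctgc
EZH1: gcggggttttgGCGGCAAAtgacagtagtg

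Of the genes with such a match, 5 fell and EZH1 rose, so the word was not limited to 1 direction. The windows of EED, RBBP4 and RBBP7, which fell, and of JARID2 held none of these words. The match of EZH2 lies 2 to 9 bases from its start, that of MTF2 6 to 13 bases from it, and those of the other genes upstream, at -152 to -145 for PHF19, -189 to -182 for SUZ12, -150 to -143 for AEBP2 and -115 to -108 for EZH1. TTTGAA, the core of the cell cycle element of late mitotic genes, occurred in 15.2% of all windows. Its share was 4.84% of windows with at least 60% G and C. Among the members it stood only in SUZ12. A match is a string of letters, and binding was not measured.

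Among the other core subunits, the scaffold SUZ12 fell to a little under 50% of control. It stood at 129.6, 124.7 and 139.2 CPM in the control libraries and at 58.3, 63.2 and 71.02 CPM in the 5-FU libraries, with no overlap. SUZ12 changed by -1.03 on the log2 scale (SE 0.12, edgeR adjusted p = 1.74e-05). SUZ12 (ENSG00000178691) lies on chromosome 17 at 31937018 to 32001045, plus strand. A transcribed pseudogene with long stretches of the same sequence, SUZ12P1, lies on that chromosome at 30709299 to 30790908. SUZ12P1 had counts of 391, 423 and 345 in the control libraries and of 461, 375 and 363 after 5-FU (log2 fold change 0.17, SE 0.15, edgeR adjusted p = 0.34). That equals 13.7% of the SUZ12 counts in control and 31.1% in 5-FU libraries. The sources used here do not say how reads that fit both were counted, so the size of the SUZ12 change is uncertain.

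EED, the reader of the mark, changed least among the core genes that fell. Its libraries were at 37.01, 29.3 and 37.5 CPM in control and at 25.2, 24.6 and 21.9 CPM after 5-FU. The groups did not overlap, but control replicate 2 came within a few CPM of the treated libraries. EED changed by -0.54 on the log2 scale (SE 0.14, edgeR adjusted p = 0.00422). The call was lost with upper-quartile scaling (-0.17, edgeR adjusted p = 0.25) and when the test was limited to genes averaging 50 counts or more (-0.28, edgeR adjusted p = 0.0756). TMM factors were computed anew for that filter.

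RBBP4, the most abundant member in CPM, fell from 269.3, 207.7 and 266.4 CPM to 76.9, 99.9 and 94.5 CPM. All treated libraries were below all controls, with a log2 fold change of -1.45 (SE 0.15, edgeR adjusted p = 8.13e-06). Its paralogue RBBP7 went from 191.3, 158.4 and 196.5 CPM to 82.7, 87.6 and 82.8 CPM, also without overlap (log2 fold change -1.11, SE 0.12, edgeR adjusted p = 1.35e-05). Per length their levels were close in control, at ratios of RBBP7 to RBBP4 from 0.910 to 0.977. In the 5-FU libraries the ratio was 1.38, 1.12 and 1.12. This is a log2 difference of 0.35 (exact two-sided permutation p = 0.1, and 0.1 after adjustment), and without 5-FU replicate 1 it was 0.25. Their summed FPKM went from 52.8 ± 7.52 to 19.7 ± 2.05 (SD, n = 3 per group), the largest loss in FPKM among the 3 pairs.

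Reads of RBBP4 and RBBP7 may be shared with other genes to a small extent. Exons of SYNC on the opposite strand cover 18% of the exonic bases of RBBP4, but SYNC itself had 15 to 38 counts per library, against 1509 to 6004 for RBBP4. The processed pseudogene RBBP4P1 held 1.44% as many counts as RBBP4 in control and 1.13% in 5-FU libraries, and 5 further RBBP4 pseudogenes held 0 to 61 counts in all 6 libraries together. Exons of TXLNG on the opposite strand cover 2.4% of RBBP7. EZH2P1 had 1 count in all.

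Among the accessory subunits PHF19, a Polycomb-like protein whose Tudor domain binds methylated lysine 36 of histone H3, fell furthest of the 10 members. Control libraries held 114.1, 76.9 and 141.5 CPM and 5-FU libraries 24.7, 25.8 and 22.4 CPM. The treated libraries were tightly grouped while the controls were spread widely (SD 32.4 CPM around a mean of 110.8). PHF19 changed by -2.19 on the log2 scale (SE 0.19, edgeR adjusted p = 3.77e-06), equal to 21.9% of control, and 2.11% of tested genes fell further.

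Its paralogue MTF2, which recruits PRC2 to unmethylated CpG islands, changed little by comparison. It stood at 43.4, 41.3 and 44.1 CPM in control and at 28.7, 32.4 and 31.8 CPM in 5-FU libraries, without overlap (log2 fold change -0.47, SE 0.11, edgeR adjusted p = 0.00317). As for EED, the call was lost with upper-quartile scaling (-0.11, edgeR adjusted p = 0.36) and at a mean count of at least 50 (-0.22, edgeR adjusted p = 0.0793). The ratio of PHF19 to MTF2 in FPKM went from 2.31, 1.64 and 2.81 in control to 0.754, 0.698 and 0.62 after 5-FU. This is a 3.19-fold decrease of the ratio (log2 difference -1.67, exact two-sided permutation p = 0.1, and 0.1 after adjustment), with separate groups.

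The third Polycomb-like gene, PHF1, is not among the 10 members but competes for the same place in the complex. PHF1 rose (log2 fold change 0.82, SE 0.12, edgeR adjusted p = 0.000109). In FPKM it went from 16.3 ± 1.75 to 25.9 ± 1.42 (SD, n = 3 per group). Of the summed FPKM of PHF1, MTF2 and PHF19, PHF1 held 40.1% ± 5.06 in control and 75.7% ± 1.72 in 5-FU libraries, while PHF19 went from 41.2% ± 6.69 to 9.88% ± 0.34 and MTF2 from 18.7% ± 2.15 to 14.4% ± 1.55. The groups were separate for each of these shares.

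Of the partners of the other form, AEBP2, a zinc finger protein, fell and JARID2, a catalytically inactive member of the Jumonji family, gave no call. AEBP2 stood at 59.6, 61.1 and 58.5 CPM in control and 27.7, 26.9 and 28.9 CPM in 5-FU libraries, the tightest replicates of all members that fell (log2 fold change -1.10, SE 0.11, edgeR adjusted p = 6.86e-06). JARID2 had 43.02, 45.1 and 43.7 CPM in control and 48.7, 44.8 and 49.2 CPM after 5-FU. The groups overlapped, and its log2 fold change of 0.11 had a 95% interval from -0.13 to 0.35 (edgeR adjusted p = 0.36). Its call and its sign varied between settings. It was called higher with upper-quartile factors (0.47, edgeR adjusted p = 0.00261) and at a mean count of at least 50 (0.36, edgeR adjusted p = 0.00946), and it was slightly below 0 on the authors' FPKM and without the low-count filter. JARID2-AS1, an antisense gene at the same locus, had 5 to 15 counts per library.

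**Figure D3:**
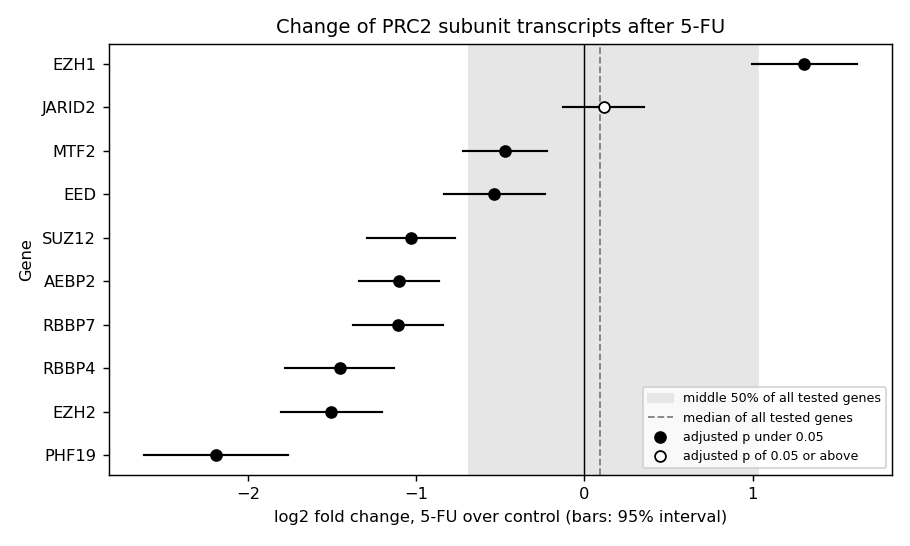
Log2 fold change of each PRC2 gene, 5-FU over control, with its 95% interval; the grey band holds the middle 50% of all 19771 tested genes and the dashed line their median of 0.09. SUZ12, AEBP2, RBBP7, RBBP4, EZH2 and PHF19 lie below the band, EZH1 lies above it, and the open point is JARID2.

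The order of levels per length changed with these shifts. In control libraries it ran RBBP4 (27.2 ± 4.23 FPKM), RBBP7 (25.6 ± 3.31), SUZ12 (20.8 ± 1.46), EZH2 (17.9 ± 2.92), PHF19 (17.1 ± 5.24), AEBP2 (9.43 ± 0.08), JARID2 (7.58 ± 0.08), MTF2 (7.54 ± 0.38), EED (5.13 ± 0.76) and EZH1 (4.70 ± 0.46). Neighbours in this order overlapped from RBBP4 to PHF19, as did JARID2 with MTF2 and EED with EZH1. The separations were PHF19 above AEBP2, AEBP2 above JARID2, and MTF2 above EED.

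After 5-FU the order was RBBP7 (10.7 ± 0.61 FPKM), EZH1 (10.5 ± 1.32), SUZ12 (9.22 ± 1.17), RBBP4 (8.99 ± 1.46), JARID2 (7.42 ± 0.37), EZH2 (5.71 ± 0.62), MTF2 (4.92 ± 0.47), AEBP2 (3.97 ± 0.21), PHF19 (3.39 ± 0.24) and EED (3.19 ± 0.18). EZH1 thus went from the lowest mean to the second highest. Neighbours were separate at JARID2 above EZH2, MTF2 above AEBP2 and AEBP2 above PHF19, and overlapped elsewhere. Gene length here is the union of all annotated exons, so a gene used mainly as a short transcript is understated.

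Among the controls, replicate 2 was the library nearest to the 5-FU group for 8 of the 9 members that changed. The exception was AEBP2, whose nearest control was replicate 3. Control replicate 2 also had the lowest summed level of 20 proliferation genes, 3058 CPM against 4687 and 5386 CPM in the other controls, and the 5-FU libraries held 293.4 to 513.5 CPM. Without control replicate 2 the log2 fold changes were -1.65 for EZH2, 1.37 for EZH1 and -2.43 for PHF19, in each case slightly larger in size. EZH2, PHF19, SUZ12, EED, RBBP7 and MTF2 ranked the 3 controls in the same order as the proliferation sum, and RBBP4 did not. EZH1, AEBP2 and JARID2 were highest in the control where that sum was lowest. An order of 3 libraries can match by chance. The part of proliferation in the PRC2 differences was not tested.

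The proliferation genes had a median log2 fold change of -3.23, and 19 of the 20 fell, against 33.9% of all tested genes. CCNE1 gave no call. The mitotic cyclin CCNB1 (-5.15, SE 0.25) and the replicative helicase subunits MCM6 (-3.12, SE 0.17) and MCM5 (-3.12, SE 0.19) had the smallest p. All 8 PRC2 members that fell did so by less than this median, the furthest being PHF19 at -2.19. The transcription factor E2F1, which drives genes of the S phase, fell from 54.7 ± 11.1 to 10.4 ± 4.05 CPM (SD, n = 3 per group), and is named here after its value was seen.

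The genes whose profile over the 6 libraries was most like that of EZH2 were MRPL39, a mitochondrial ribosomal protein, KPNB1, the nuclear import receptor importin beta, and NOL11, a nucleolar protein. Likeness was the root mean square difference of log2(CPM + 0.1) after centring each gene on its own mean, over the 11418 protein-coding genes that averaged 100 counts or more. It was 0.039, 0.043 and 0.043 for the 3 genes, and 0.065 for RBBP4, which ranked 26 among all genes. The other members were further away, RBBP7 at rank 1026, SUZ12 at 1609, AEBP2 at 1628, PHF19 at 2901, EED at 4425, MTF2 at 4736, JARID2 at 7845 and EZH1 at 10802. Genes were centred but not scaled, so the size of the change between groups counts in this difference. The log2 fold changes of MRPL39, KPNB1 and NOL11 were -1.53, -1.55 and -1.50, and that of EZH2 was -1.50. PHF19, which fell further than EZH2 (-2.19), ranked behind RBBP7, SUZ12 and AEBP2. The ranks thus largely restate the fold changes, and likeness among libraries within a group was not tested. For EZH1 the nearest genes were ZNF410, a zinc finger protein, TMEM91 and CACNA1I, a calcium channel subunit (0.035, 0.072 and 0.074). Their log2 fold changes of 1.29, 1.26 and 1.43 were likewise near that of EZH1 (1.31).

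Of the further accessory genes, LCOR, whose locus also encodes the PRC2 cofactor PALI1, fell (-0.51, SE 0.11), as did EPOP (-0.87, SE 0.14) and LCORL (-1.19, SE 0.13). With PHF1 as the riser, 3 of 4 tested genes in this group fell, against 33.9% of all tested genes. EZHIP, an inhibitor of the enzyme known from the germ line, had 0 counts in every library, which does not exclude a level too low to be counted.

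PRC1, the complex that ubiquitinates histone H2A, had a smaller median change than PRC2, a difference not tested. Of 23 PRC1 genes 11 fell, 3 rose and 9 did not pass, at a median of -0.27. The shares over all tested genes were 33.9% lower and 36.3% higher. The catalytic subunit RNF2 fell (-1.27, SE 0.17) while its paralogue RING1 rose slightly (0.32, SE 0.11, edgeR adjusted p = 0.0194). PHC2 (-0.99, SE 0.12) and PCGF6 (-1.19, SE 0.16) fell as well. Among the CBX proteins, which read the mark that PRC2 writes, CBX2 fell (-1.09, SE 0.22) and CBX7 rose (0.74, SE 0.12). With upper-quartile scaling 8 PRC1 genes rose and 6 fell, so the balance of this group turned. Without the low-count filter only 1 rose and 12 fell, so not all calls of risers held. RING1, CBX2 and CBX7 are named here after their values were seen.

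**Figure D4:**
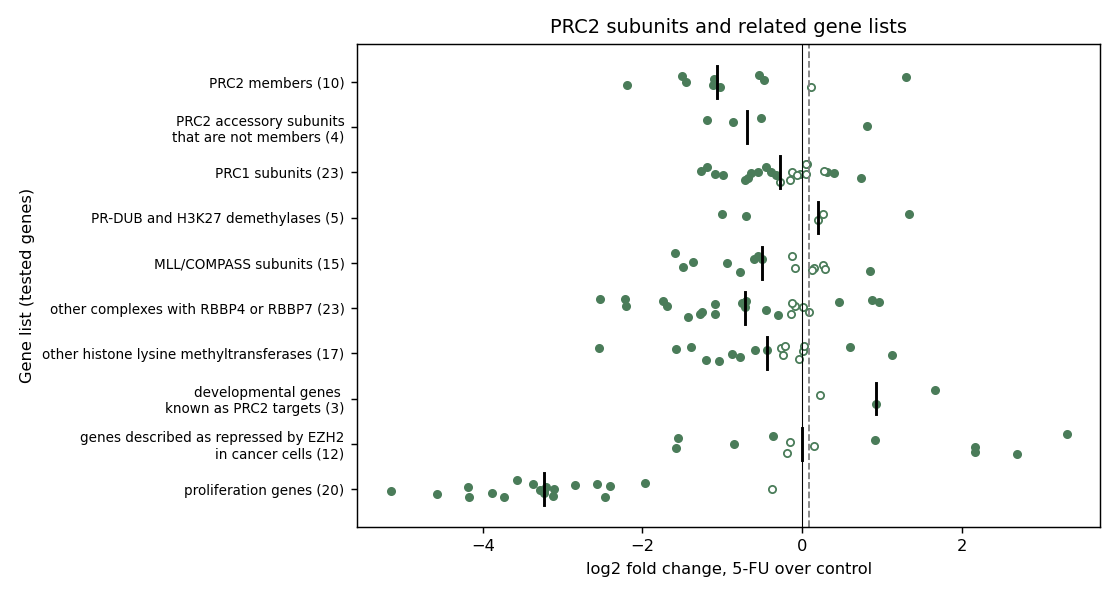
Log2 fold change, 5-FU over control, of the tested genes of each list (1 point per gene, filled where the adjusted p was under 0.05, black bar at the list's median, dashed line at the median of all tested genes). PRC2 genes centre at -1.07 with EZH1 alone far to the right, while proliferation genes centre at -3.23.

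On the side of removal, KDM6B, a demethylase of lysine 27 of histone H3, rose from 49.2 ± 3.90 to 124.3 ± 23.6 CPM (log2 fold change 1.34, SE 0.15, edgeR adjusted p = 1.23e-05). Its relative KDM6A did not pass (0.27, SE 0.12, edgeR adjusted p = 0.0583). BAP1, the deubiquitinase that opposes PRC1, fell from 173.1 ± 9.82 to 86.5 ± 13.6 CPM (SD, n = 3 per group), and its partner ASXL2 fell (-0.70, SE 0.11). In all 1 of 5 tested genes of this group rose and 2 fell, where 36.3% of all tested genes rose and 33.9% fell. With upper-quartile factors, with plain library totals and at a mean count of 50 or more, 3 rose and 2 fell, so the balance turned.

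Of 23 genes from other complexes that contain RBBP4 or RBBP7, 15 fell and 3 rose, at a median of -0.72. By the same rule 33.9% of all tested genes fell and 36.3% rose. The largest decreases by p were CHAF1A (-2.54, SE 0.19) and CHAF1B (-2.21, SE 0.18), which assemble nucleosomes behind the replication fork, and LIN9 (-2.22, SE 0.20), a subunit of the MuvB complex. The deacetylases HDAC1 (-1.10) and HDAC2 (-1.25), named here after their values were seen, fell in similar measure to RBBP7.

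The MLL/COMPASS methyltransferases, which act on lysine 4 of histone H3 and oppose Polycomb silencing, had 8 of 15 genes lower and 1 higher, at a median of -0.50. The shared subunits ASH2L (-1.49, SE 0.13) and DPY30 (-1.59, SE 0.14) and the cofactor HCFC1 (-1.37, SE 0.18) fell. With upper-quartile scaling 5 fell and 5 rose. Other histone lysine methyltransferases fell for 9 of 17 and rose for 2 (median -0.44), with SUV39H1 (-2.55, SE 0.21), SUV39H2 (-1.58, SE 0.18) and NSD2 (-1.39, SE 0.14) lower. Both lists stand beside 33.9% lower and 36.3% higher over all tested genes.

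Genes known as developmental targets of PRC2 were near 0 in both groups. Of 20 such genes 17 had too few counts to be tested, and all 20 together summed to 5.38 to 6.01 CPM in control and 8.76 to 10.6 CPM in 5-FU libraries. HOXA9 rose (log2 fold change 0.93, SE 0.23, edgeR adjusted p = 0.00329) from 2.78 ± 0.36 to 5.28 ± 0.92 CPM. NEUROG2 was called (1.67, SE 0.65, edgeR adjusted p = 0.0351) at a mean count of 6.67, and lost its call in 7 alternatives, among them the test of DESeq2 (adjusted p = 0.0732) and the removal of any library other than control replicate 2. PAX6 did not pass.

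Genes described as repressed by EZH2 in cancer cells went both ways, with 5 of 12 tested higher, 4 lower and 3 without a call, at a median of 0.00. These counts are near the shares over all tested genes, 36.3% higher and 33.9% lower, so the list as a whole did not stand out. The balance varied between settings, with 6 higher and 2 lower under upper-quartile factors, and 2 higher and 4 lower on the authors' FPKM of genes with at least 1 FPKM in 3 libraries. CDKN2B, the CDK inhibitor p15, rose from 1.86 ± 0.23 to 18.7 ± 4.34 CPM (log2 fold change 3.32, SE 0.23, edgeR adjusted p = 1.01e-06). VASH1, an inhibitor of vessel growth, rose (2.17, SE 0.28). CDKN2A, next to CDKN2B, reached 0.83 ± 0.09 CPM from 0.12 ± 0.09 CPM (2.70, SE 0.50, edgeR adjusted p = 0.000491), at a mean count of 9.67, and is named here after its value was seen. An antisense RNA runs through this locus, and the sources used here do not say whether counting used strand. PEBP1, the RAF kinase inhibitor protein, fell (-1.55, SE 0.14), and CDKN1C, also named after its value was seen, fell (-1.58, SE 0.29).

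**Figure D5:**
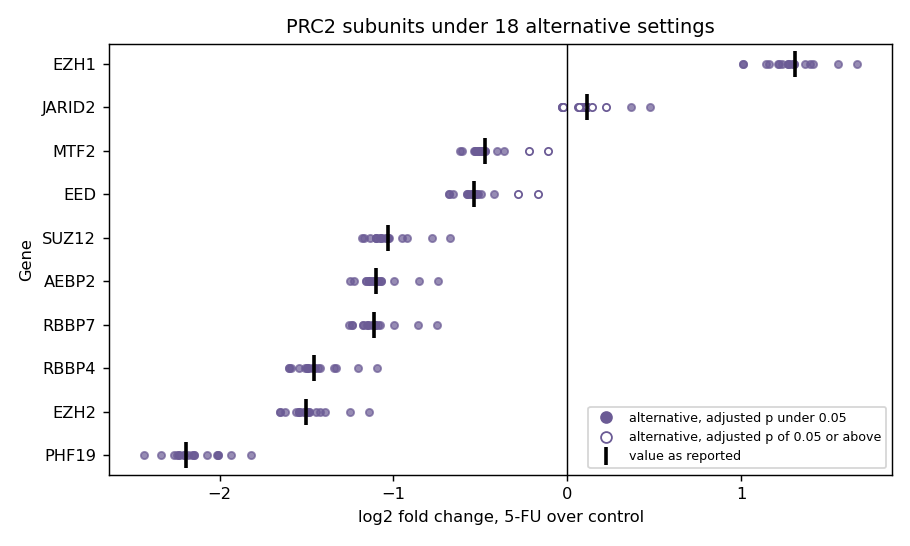
Log2 fold change of each PRC2 gene under the 18 alternative settings (points, open where the adjusted p was 0.05 or above) beside the value as reported (black bar). EZH1 and the 6 members that fell most keep their side of 0 and their call throughout, EED and MTF2 each have 2 open points, and JARID2 straddles 0.

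How far the members moved depended on the scaling. Upper-quartile factors moved the median of all tested genes up by 0.36 on the log2 scale, and plain library totals by 0.11. On log2(FPKM + 1) of genes with at least 1 FPKM in 3 libraries the median was lower by 0.29. That median covers 16093 genes in place of 19771, so its difference does not measure how far the members moved. Without the low-count filter the median rose by 0.54 over 39721 genes, while every member had a lower log2 fold change. EZH2 then went from -1.50 to -1.65 and JARID2 from 0.11 to -0.033. Over the 18 alternatives EZH1 ranged from 1.01 to 1.66, EZH2 from -1.65 to -1.14, and PHF19 from -2.43 to -1.82, each called in all of them.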

How the data were processed

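RNA of HCT-8 cells was sequenced from 3 control and 3 5-FU samples, grouped by the treatment label. The authors deposited whole-number counts per gene and FPKM for 58735 genes. The library kit was NEBNext Ultra RNA, per the labels' protocols. HISAT2 2.0.5, featureCounts 1.5.0-p3, DESeq2 1.16.1 and GRCh38 were used, per the submitters' processing notes; the strand setting is not given in the sources used here. Each gene's identifier and position was found in GENCODE release 29. The deposited FPKM equal the count divided by gene length and by 1 constant per library, 0.892 to 0.986 times the total in control and 1.07 to 1.16 times in 5-FU libraries, which enters every FPKM level but no ratio within a library.

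Counts were tested with edgeR 4.0.16 in R 4.3.3 (filterByExpr with minimum count 10 and minimum total 15, TMM, quasi-likelihood test, design of group alone, Benjamini-Hochberg adjustment over 19771 genes, adjusted p under 0.05). The SE is the coefficient divided by the square root of F. The fit was tested on simulated data. Ratios used exact permutation tests. Alternatives were other scalings and filters, DESeq2 1.42.0, limma 3.58.1 (voom, and trend on log2(FPKM + 1) or log2(FPKM + 0.1)), a replicate block, and leaving out each library. Promoters came from RefSeq (GRCh38.p14); windows were found for all 10 members.

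The members, the 9 gene lists and the alternatives were chosen with earlier results of these data known. From each list the rule names up to 3 called genes of smallest p, or the 2 most counted where none was called. The counting totals limit precision only weakly: members had at least 463 counts in each library.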

Additional observations from a re-analysis of the deposited data

How the results depend on the processing

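Of 180 values (10 members under 18 alternatives), 170 kept direction and side of the threshold. EED and MTF2 lost their calls, and JARID2 gained one, with upper-quartile factors and at a mean count of at least 50, so that 2 members were higher and 6 lower in both. JARID2 was reversed without the low-count filter (-0.033), on log2(FPKM + 1) with and without a filter on low values (-0.028 in both) and on log2(FPKM + 0.1) (-0.031), with adjusted p from 0.77 to 0.87. The cause was not tested. Over all genes the count of higher genes moved to 4320 on log2(FPKM + 1) and 4268 on log2(FPKM + 0.1), both for genes with FPKM of at least 1 in 3 libraries, against 7171. Those settings called 7136 and 7119 genes lower, against 6706, and upper-quartile factors called 9602 higher and 4614 lower.

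Leaving out 1 library at a time left 1 member higher and 8 lower each time, with 6639 to 7274 of all genes higher and 6318 to 6830 lower. The ratio of EZH2 to EZH1 then ranged from -3.01 to -2.63, that of RBBP7 to RBBP4 from 0.25 to 0.40 and that of PHF19 to MTF2 from -1.89 to -1.50 (log2). No label says that replicate numbers pair the samples. Same-numbered libraries had correlations of -0.0718, -0.202 and 0.0603 in their deviations from the group means. Libraries did not all correlate best with their own number. With 3 libraries per group these values cannot tell whether same-numbered samples were handled together. With the replicate block all 10 members kept direction and call, with 6863 genes higher and 6380 lower, and the ratios kept their values (-2.80, 0.35 and -1.67) at an exact sign-flip p of 0.25, the smallest that 3 pairs can give. Of 324 counts of called genes in the other lists, 32 moved by over 1.5 times. Low counts left 17 developmental PRC2 targets untested, and absent expression and limited depth cannot be told apart for them.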
